A study of Mus musculus with 6 samples.

Results

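The transcription factors that set up and maintain the sympathoadrenal lineage, the neural crest line that gives rise to sympathetic neurons and to the chromaffin cells of the adrenal medulla, were followed through the adrenal glands of mice with and without chromogranin A. The members were 7 genes, Phox2a, Hand1, Hand2, Gata2, Gata3, Insm1 and Eya1, out of 8251 genes named by a single symbol on the array. All 10 probe sets that the platform annotation gives to these symbols were used, dim ones included. None of the 10 carried a second symbol.

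RNA of whole adrenal glands was measured on 6 Affymetrix arrays of 12488 probe sets each. The 3 knockout arrays came from chromogranin A knockout mice and the 3 wild-type arrays from wild-type mice, and the labels attribute both strains to 1 earlier publication. All mice were male and 12 weeks old, and no treatment is named. The series gives 3 mice per genotype, so each array was read as 1 animal. The labels do not give the genetic background or the deleted part of the gene, and a whole gland holds cortex, medulla, vessels and capsule.

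Each factor is a DNA-binding protein or works beside one. PHOX2A is a paired-type homeodomain factor that drives the genes of noradrenergic identity. HAND1 and HAND2 are basic helix-loop-helix factors that pair with E proteins such as those of Tcf3, Tcf4 and Tcf12. GATA2 and GATA3 are zinc finger factors that bind GATA sites, and GATA3 is needed in mice for catecholamine synthesis in sympathetic cells. INSM1 is a zinc finger factor of neuroendocrine cells that is required for normal development of the medulla. EYA1 is a phosphatase and coactivator that binds homeodomain proteins such as that of Six4.

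Upstream sequence is shown for Gata2, the member whose groups stood farthest apart, and for Hand2, a dim gene whose values nearly coincided between the genotypes. They were picked on these values and because the DNA in front of them differed in the letters these factors are known to read. Setting them side by side therefore says nothing of a link between motifs and change, which was not tested. RefSeq windows of the GRCm38.p6 build were matched for 4 members: Phox2a, Hand2, Gata2 (2 start sites) and Gata3. The 250 bases before each start were searched on both strands, counting overlapping matches, for GATA sites (GATA with A or T before it and A or G after it), E-boxes (CANNTG) and the homeodomain core ATTA. The windows are given 5′ to 3′ in lower case with matches in capitals.
Gata2, first start, chr6:88193641-88193890, plus strand: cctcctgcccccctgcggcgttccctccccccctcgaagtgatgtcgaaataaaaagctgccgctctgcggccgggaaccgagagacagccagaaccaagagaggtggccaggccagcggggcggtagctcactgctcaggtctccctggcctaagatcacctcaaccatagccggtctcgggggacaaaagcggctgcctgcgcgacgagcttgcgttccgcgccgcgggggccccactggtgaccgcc
Gata2, second start, chr6:88198414-88198663, plus strand: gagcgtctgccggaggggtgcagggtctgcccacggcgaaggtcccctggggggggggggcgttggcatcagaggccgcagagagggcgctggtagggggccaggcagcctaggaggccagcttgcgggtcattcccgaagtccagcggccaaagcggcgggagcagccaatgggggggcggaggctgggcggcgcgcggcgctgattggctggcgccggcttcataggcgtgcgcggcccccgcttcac
Hand2, chr8:57320733-57320982, plus strand: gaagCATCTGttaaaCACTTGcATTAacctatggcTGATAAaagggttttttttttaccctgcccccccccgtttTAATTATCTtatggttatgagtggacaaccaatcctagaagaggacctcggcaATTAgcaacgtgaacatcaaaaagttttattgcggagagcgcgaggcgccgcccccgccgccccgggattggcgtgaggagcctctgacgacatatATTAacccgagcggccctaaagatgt

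The Hand2 window held 2 GATA sites, 2 E-boxes and 5 ATTA cores. Neither Gata2 window held any of these motifs, nor did the windows of Gata3 and Phox2a. Over all 32851 windows of the same length, 26.5% held a GATA site, 66.2% an E-box and 54.9% an ATTA core. The 5 windows also differed in base composition. G and C made up 49.2% of the Hand2 window, 67.2% and 74.0% of the Gata2 windows, 70.0% of the Gata3 window and 70.4% of the Phox2a window, beside a median of 52.4% over all windows. A match describes letters only, and a window without one says nothing of binding elsewhere.

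Chga itself checked the labels: its brighter probe set lay between 858 and 1188 on the knockout arrays and between 30213 and 46719 on the wild-type arrays. The median signal was 954 to 1093 over the 6 arrays. Of 7453 probe sets tested, 33 passed the threshold of an adjusted p of 0.05 (limma with Benjamini-Hochberg adjustment), 12 higher and 21 lower in knockout. Knockout arrays 2 and 3 stood apart from the rest: their skeletal muscle actin signal (Acta1) was 32131 and 13869, against 29.1 to 565 on the other arrays, and their 3′ to 5′ signal ratio of Gapdh, a sign of RNA integrity, was 1.30 and 1.29 against 0.762 to 0.831.

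None of the lineage factors passed the test. Of the 10 member probe sets, 7 were bright enough to be tested and stood for 6 genes, and 3 were dim, among them the only probe set of Hand2. In limma 0 of the 7 passed, where 0.443% of all tested probe sets did (0.161% higher and 0.282% lower), and the smallest adjusted p was 0.245. Of the 3 dim ones 0 passed in the fit without the filter, where 0.185% did. At an unadjusted p under 0.05 there were 2 of 7, Gata2 and Eya1, where 11.3% of all tested probe sets were. The same 2 were the only members whose groups did not overlap, which held for 16.4% of all tested probe sets. By the brightest tested probe set of each gene, 5 genes had higher and 1 had lower values in knockout. Their median log2 change was 0.34, beside -0.01 over all tested probe sets, of which 48.9% lay above 0.

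**Figure D1:**
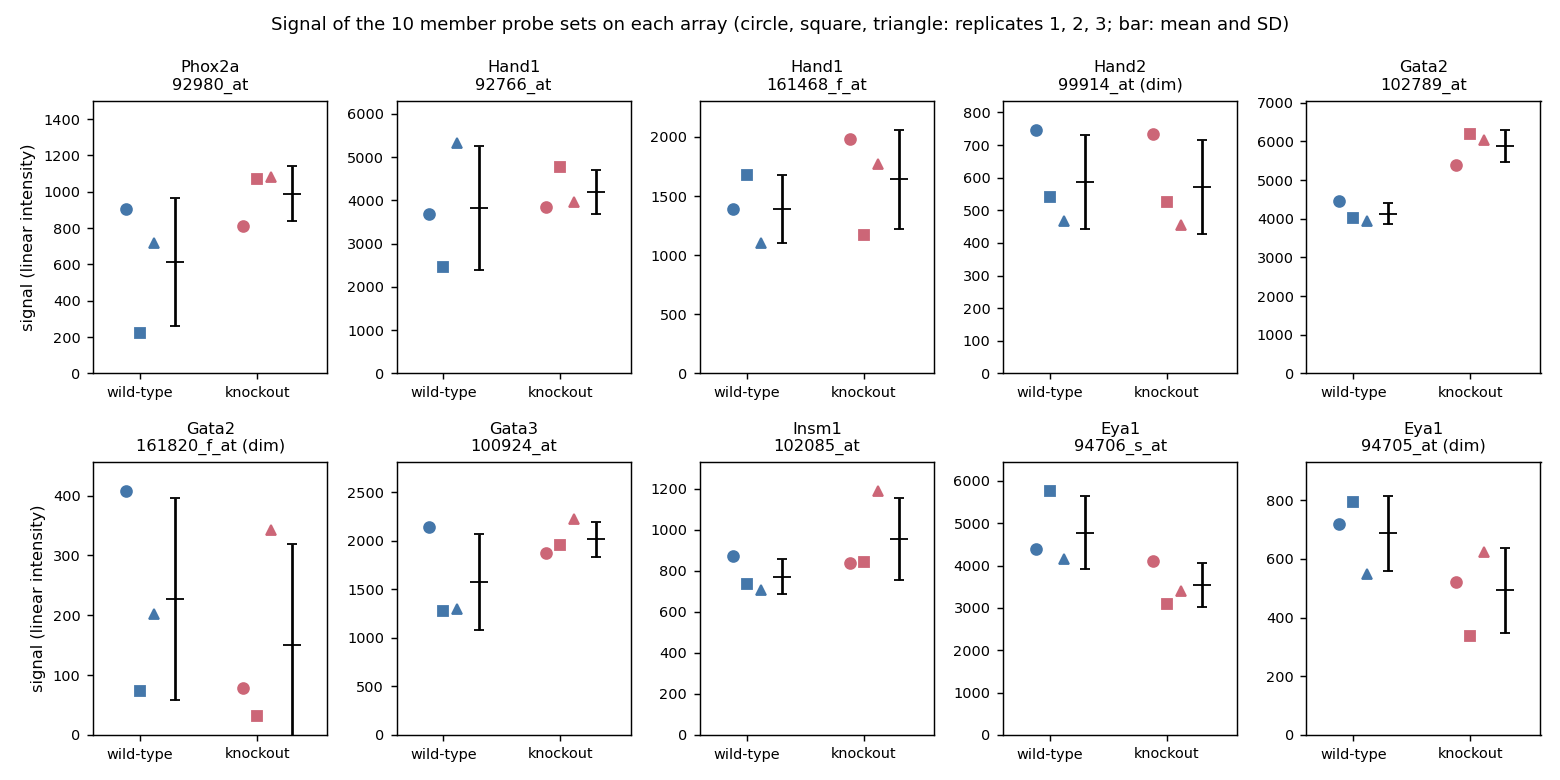
Signal (linear intensity) of the 10 member probe sets on the 3 wild-type and 3 knockout arrays, with mean and SD beside the points and each axis starting at 0. The groups do not overlap for Gata2 102789_at and Eya1 94706_s_at and overlap for the other 8, and the lower SD bar of the dim Gata2 probe set in knockout runs past 0 and is cut at the axis.

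Phox2a was the member with the largest log2 change among those tested, and also the one with the widest spread. In knockout it read 813, 1071 and 1080, in the order of replicates 1 to 3 used throughout, and in wild type 905, 221 and 716. The groups overlapped, since wild-type array 1 lay above knockout array 1, and wild-type array 2 was 4.09 times dimmer than wild-type array 1. The means were 988 ± 152 and 614 ± 353 (SD, n = 3 each), a log2 change of 0.88 ± 0.48 (SE, limma adjusted p = 0.521). The 95% interval ran from -0.21 to 1.97 on the log2 scale, that is from 0.862-fold to 3.91-fold. Without wild-type array 2 the log2 change was 0.28, and without wild-type array 1 it was 1.26.

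Hand1 had overlapping groups on both of its probe sets. Its brighter probe set gave 3852, 4774 and 3958 on the knockout arrays and 3694, 2452 and 5322 on the wild-type arrays. Both the highest and the lowest of these values were wild-type, so that the knockout arrays lay inside the wild-type range. The log2 change was 0.20 ± 0.26 (SE, limma adjusted p = 0.81, 95% interval -0.39 to 0.79), and it was -0.09 without wild-type array 2. The other Hand1 probe set, 161468_f_at, has the suffix that Affymetrix uses for probes able to match several related transcripts. It gave 1978, 1172 and 1773 in knockout and 1391, 1675 and 1104 in wild type, a log2 change of 0.22 ± 0.26 (SE, adjusted p = 0.783). The 2 probe sets had like changes but ordered the arrays differently: wild-type array 2 was lowest on the first and the highest wild-type array on the second.

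Hand2, which is known to help maintain catecholamine genes, was dim. Its signal was 733, 525 and 455 in knockout and 747, 542 and 469 in wild type. The 3 knockout values nearly repeated the 3 wild-type values, with overlapping groups and means of 571 ± 145 and 586 ± 144 (SD, n = 3 each). In the fit without the filter on dim probe sets the log2 change was -0.04 ± 0.35 (SE, limma adjusted p = 0.988). Its 95% interval from -0.82 to 0.75 leaves room for changes from 0.567-fold to 1.68-fold.

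Gata2 gave the clearest separation of the genotypes. Its brighter probe set, 102789_at, read 5402, 6194 and 6044 in knockout and 4449, 4024 and 3931 in wild type. Every knockout array lay above every wild-type array, and the spread within each genotype was small, with a highest value 1.15 times the lowest in knockout and 1.13 times in wild type. The means were 5880 ± 421 and 4135 ± 276 (SD, n = 3 each), a 1.42-fold difference. The log2 change was 0.51 ± 0.14 (SE, 95% interval 0.19 to 0.82, unadjusted p = 0.00551). It did not pass over all probe sets (limma adjusted p = 0.245), and it ranked 167 of 7453 by p. Non-overlap in this direction occurred in 7.55% of all tested probe sets. Leaving out any 1 array gave values from 0.47 to 0.57, and knockout array 1 by itself, set against all wild-type arrays, gave 0.39. With the 3′ to 5′ ratio of Gapdh as a covariate, which itself differed between the genotypes, the log2 change was 0.36.

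The other Gata2 probe set was too dim to bear on this difference. It read 78.4, 30.8 and 342 in knockout and 407, 72.5 and 202 in wild type, so the groups overlapped and knockout array 3 was 11.1 times knockout array 2. Its log2 change in the fit without the filter was -0.79 ± 0.83 (SE, adjusted p = 0.848), opposite in sign to that of the brighter probe set.

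Gata3, the paralogue of Gata2, had higher values in knockout but overlapping groups. It read 1872, 1957 and 2220 in knockout and 2147, 1281 and 1298 in wild type. Wild-type array 1 reached the knockout level while the other wild-type arrays lay below all knockout arrays. The log2 change was 0.39 ± 0.24 (SE, limma adjusted p = 0.557, 95% interval -0.14 to 0.92). It was 0.63 without wild-type array 1 and 0.27 without wild-type array 2.

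Insm1 also had overlapping groups. It read 839, 842 and 1189 in knockout and 872, 738 and 708 in wild type, where knockout array 3 was the highest and wild-type array 1 exceeded the other knockout arrays. The log2 change was 0.29 ± 0.26 (SE, limma adjusted p = 0.711, 95% interval -0.30 to 0.88). Without knockout array 3 it was 0.13.

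Eya1 was the only member gene with lower values in knockout by its brightest tested probe set. That probe set, 94706_s_at, whose suffix marks probes shared by more than 1 transcript, read 4110, 3090 and 3400 in knockout and 4394, 5759 and 4161 in wild type. All knockout arrays lay below all wild-type arrays, although knockout array 1 and wild-type array 3 were close, at 4110 and 4161. The means were 3533 ± 523 and 4771 ± 863 (SD, n = 3 each), a 1.34-fold lower level in knockout. The log2 change was -0.43 ± 0.18 (SE, 95% interval -0.84 to -0.01, unadjusted p = 0.044), and it did not pass over all probe sets (limma adjusted p = 0.427). Non-overlap in this direction occurred in 8.83% of all tested probe sets. Values without 1 array ran from -0.54 to -0.28. With knockout array 1 alone the log2 change was -0.20, and with the 3′ to 5′ ratio of Gapdh as a covariate, which itself differed between the genotypes, it was -0.12.

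The dim Eya1 probe set, 94705_at, gave the same sign. It read 520, 337 and 622 in knockout and 718, 794 and 547 in wild type, with overlapping groups and a log2 change of -0.49 ± 0.35 (SE, adjusted p = 0.759 in the fit without the filter). On both Eya1 probe sets knockout array 2 was the lowest and wild-type array 2 the highest.

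**Figure D2:**
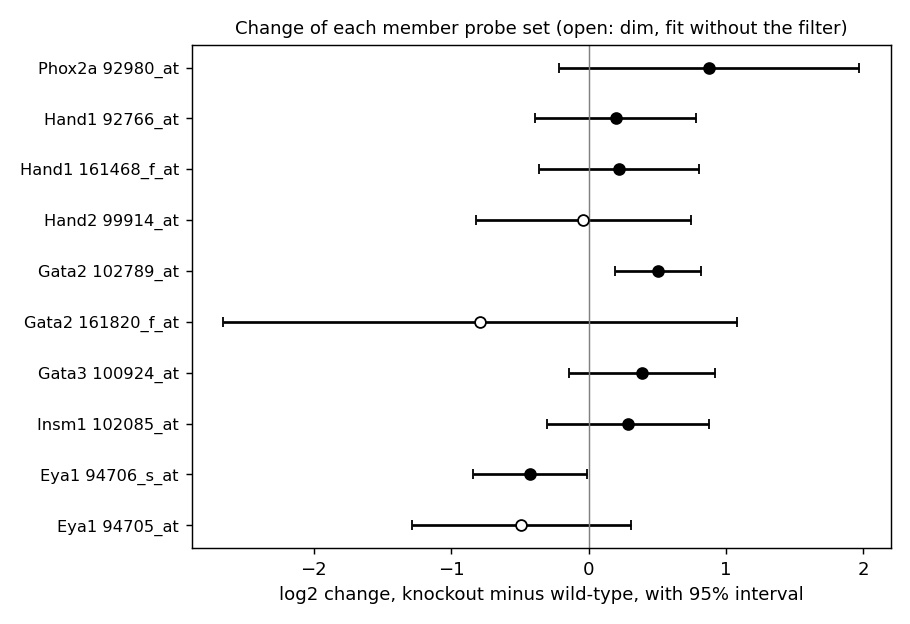
Log2 change of each member probe set, knockout minus wild-type, with its 95% interval from limma; open points are the 3 dim probe sets, from the fit without the filter. The interval lies above 0 for Gata2 102789_at, below 0 for Eya1 94706_s_at and spans 0 for the other 8.

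Most chromaffin markers had higher values in knockout, as did most of the factors. Of 11 chromaffin markers 8 had a named probe set and all were tested. Their summed signal was 250247 to 269126 on the knockout arrays and 197651 to 227794 on the wild-type arrays, without overlap, and no defining marker was at or near 0. Chgb, the brightest of the 8, was the largest part of each sum, at 93585 to 120199 in knockout and 69305 to 77123 in wild type. The sums therefore follow the brightest genes most. The mean log2 signal of the 8 markers was 0.36 higher in knockout (14.57 ± 0.10 against 14.21 ± 0.17, SD, n = 3 each, two-sided exact permutation p = 0.1, the smallest that 3 against 3 arrays allow). The median of the 8 single log2 changes was smaller, at 0.24. Of the 8, 7 had higher and 1 had lower values in knockout, and none passed over all probe sets. The groups did not overlap for the stored products Penk (log2 change 1.10), Npy (0.78) and Chgb (0.48). Non-overlap in this direction held for 7.55% of all tested probe sets. The groups overlapped for the catecholamine enzymes Th (0.12), Ddc (0.27) and Pnmt (-0.23) and for Scg2 (0.15) and Cyb561 (0.20). In RNA of a whole gland, more cells of a type and more RNA per cell cannot be told apart.

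**Figure D3:**
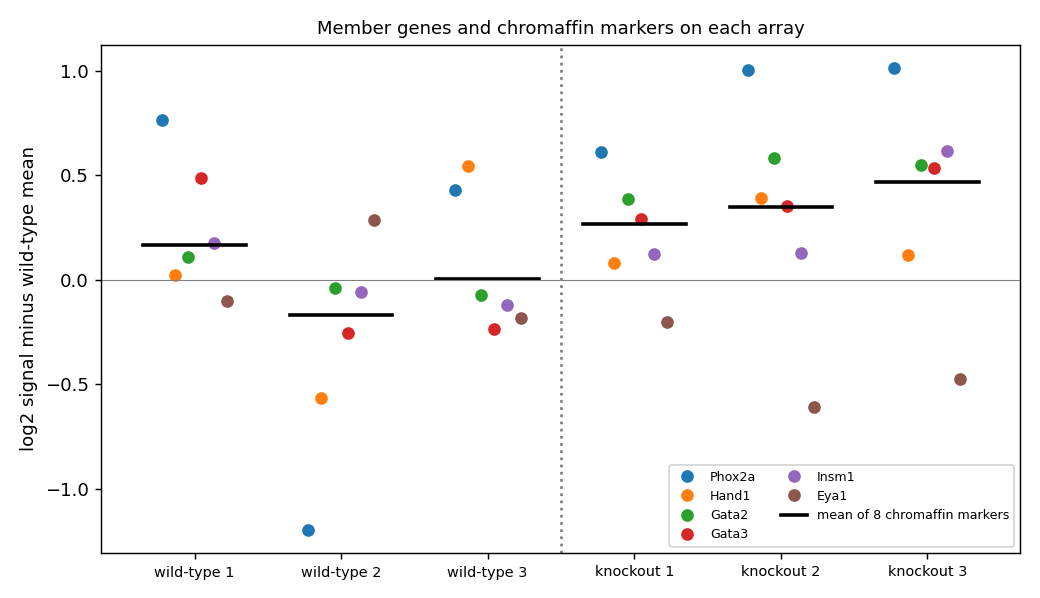
Log2 signal of the 6 tested member genes (brightest probe set) on each array relative to the wild-type mean of that gene, with the mean of the 8 chromaffin markers as a black bar. The marker bars run from -0.17 to 0.17 in wild type and from 0.27 to 0.47 in knockout, and wild-type array 2 has the lowest bar and the lowest Phox2a, Hand1 and Gata3 points.

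The members' own log2 changes stood on both sides of the mean marker difference of 0.36. The single markers behind that mean ran from -0.23 (Pnmt) to 1.10 (Penk). Which members lay above or below it therefore depends on the markers used. Those of Phox2a (0.88), Gata2 (0.51) and Gata3 (0.39) were above it, and those of Insm1 (0.29), both Hand1 probe sets (0.20 and 0.22) and Eya1 (-0.43) were below it. Insm1 lay above the marker median of 0.24, and both Hand1 probe sets and Eya1 lay below that median. The 95% intervals of Phox2a, Gata2, Gata3, Insm1 and both Hand1 probe sets included 0.36, and that of Eya1 did not. The marker difference was taken here as a fixed value, without its own spread. The part of medullary content in these values was not tested.

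Other cell types that transcribe some of the factors were followed through their own markers. Gata2 is also a gene of endothelium and mast cells. The summed signal of 9 endothelial markers was 32884 to 42026 in knockout and 30584 to 31856 in wild type, without overlap. Eng, the brightest, was the largest part of each sum, at 12747 to 15045 in knockout and 9416 to 10331 in wild type. The groups overlapped for Emcn (5376 to 9508 and 6834 to 8711). Of the 9, 8 had higher values, none passed, and the median log2 change was 0.36. The lowest single signal among the 9 was 458. For 8 mast cell markers the sums were 3273 to 5130 and 5103 to 6034, and of 4 tested 3 had lower values. Gata3 is also a gene of T lymphocytes, whose 7 markers summed to 1933 to 3297 in knockout and 2022 to 3302 in wild type. Of these only 2 were tested, Cd4 and Zap70, and Cd3d, Cd3e, Cd3g, Cd8a and Cd2 were dim, so this sum says little of T lymphocytes. Hand1 and Hand2 are also known from smooth muscle and mesenchyme, where 10 smooth muscle and fibroblast markers summed to 59175 to 66868 and 42163 to 52907, without overlap. Of 8 tested 7 had higher values, none passed, and the median log2 change was 0.36. Dcn, the brightest of them, had means of 29393 in knockout and 17719 in wild type, and Col1a1 had 6290 and 6392. The parts of endothelium, mast cells and mesenchyme in the factors' values were not tested.

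Skeletal muscle, in which Eya1 is a known developmental factor, gave high signal on knockout arrays 2 and 3: 13 muscle markers summed to 82518 and 42690 there, and to 12178 to 12952 on the other arrays. Acta1 alone read 32131 and 13869 there. Of 8 tested muscle markers 6 had higher and 2 had lower values in knockout, the lower ones being Ckm and Myh4. The brighter Eya1 probe set read lowest on knockout arrays 2 and 3. The dim one read lowest on knockout array 2 and within the wild-type range on knockout array 3. The part of muscle RNA in these values was not tested. The 8 kidney markers, where Gata3 marks the collecting duct, were all dim and summed to 2196 to 2639 in knockout and 1818 to 3027 in wild type. The 8 tested adrenal cortex markers had a median log2 change of 0.06, and their sums overlapped, at 583113 to 661596 and 547151 to 662878. Sums of 5 Schwann and glial markers overlapped as well, at 11051 to 15268 and 13023 to 16640. Sums of 7 macrophage markers did not overlap (12540 to 17598 in knockout, 8998 to 11687 in wild type). Those of 6 fat markers (44734 to 69816 and 33622 to 59857), 4 erythroid markers (74858 to 110454 and 84334 to 172696) and 7 neuronal markers (5684 to 7835 and 5085 to 5728) overlapped. Their parts in the factors' values were not tested.

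Among 25 other factors listed for the lineage and for neuroendocrine cells, 19 had a named probe set and 9 were tested. Egr1, an inducible zinc finger factor that can act on the Pnmt promoter, rose (log2 change 1.94, limma adjusted p = 0.000861), and the other 8 did not pass. Their examples by smallest p were Tbx2 (0.30), Sp1 (0.38) and Rest (0.20), the last a repressor of neuronal genes. The list median was 0.19, with 8 of 9 values higher. Sox4, a SOX factor of the early lineage, read 3175, 5846 and 3693 in knockout and 3782, 2834 and 4307 in wild type. Sox10, which marks glia and neural crest precursors, had a log2 change of 0.01. Isl1, Sox11, Tfap2b and Mycn, all known from sympathetic development, were among the 10 dim genes, and each of these 4 had overlapping groups.

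Of 14 other GATA factors and GATA partners, 9 were tested and 0 passed, with a list median of 0.03. Of the 9, 1 had an unadjusted p under 0.05, beside 11.3% of all tested probe sets. That gene was Lmo4, whose LIM-only protein bridges GATA and other factors: it read 11626, 7142 and 7559 in knockout and 12090, 12137 and 10959 in wild type (log2 change -0.45, limma adjusted p = 0.421). Knockout array 1 lay within the wild-type range and the other knockout arrays below it. Ldb1, which tethers LIM-only proteins to DNA-bound complexes, had a log2 change of 0.35 and Zfpm1, the GATA cofactor FOG-1, 0.18, both without overlap of the groups. Non-overlap in this direction held for 7.55% of all tested probe sets. Dim Gata5 had non-overlapping groups in the other direction (log2 change -1.02, limma adjusted p = 0.586 in the fit without the filter). That direction held for 8.83% of all tested probe sets, a share that does not cover dim ones. Gata4 and Gata6, the GATA factors of steroidogenic and mesodermal tissue, had 0.03 and 0.19 with overlapping groups.

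Of 11 partners and inhibitors of HAND factors, 10 were tested and 0 passed, with a list median of 0.10. Of the 10, 2 had an unadjusted p under 0.05, beside 11.3% of all tested probe sets. Both were ID genes, whose products hold E proteins away from DNA, and their changes had opposite signs. Id3 read 15056, 10563 and 8835 in knockout and 5318, 4170 and 5759 in wild type (log2 change 1.15 ± 0.21, SE, limma adjusted p = 0.0676). Id2 read 43377, 45788 and 33744 in knockout and 47430, 60882 and 49632 in wild type (-0.37 ± 0.15, adjusted p = 0.423). The groups did not overlap for either gene. Of all tested probe sets, 7.55% were higher in knockout without overlap and 8.83% lower. The E protein genes Tcf12, Tcf4 and Tcf3 had log2 changes of 0.19, 0.34 and 0.21.

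Of 11 relatives and partners of Eya1, all of them EYA, DACH or sine oculis homeobox genes, 9 had a named probe set and 2 were tested, Six2 (-0.44) and Eya2 (0.08), and 0 passed in limma, with 0 at an unadjusted p under 0.05. Six2 read high on knockout array 1 (1249) and wild-type array 2 (2377) and 489 to 586 on the other arrays. Six4, a known partner of EYA1, was dim and read 430, 420 and 666 in knockout against 182, 352 and 355 in wild type. These groups did not overlap, and the log2 change was 0.76 ± 0.42 (SE, adjusted p = 0.645 in the fit without the filter), opposite in sign to that of Eya1. Non-overlap held for 16.4% of all tested probe sets, a share that does not cover dim ones.

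Genes reported as targets of the factors in catecholamine cells did not pass either. Of 20 listed, 12 had a named probe set, 8 were tested and 0 passed, with a median log2 change of 0.13. Of the 8, 1 had an unadjusted p under 0.05, beside 11.3% of all tested probe sets. Dlk1, a chromaffin surface protein of the Notch ligand family, read 31069, 30656 and 38561 in knockout and 25961, 25638 and 25215 in wild type (0.38 ± 0.13, SE, limma adjusted p = 0.357). All knockout arrays lay above all wild-type arrays, which held for 7.55% of all tested probe sets. Gch1, which makes the cofactor of tyrosine hydroxylase, had -0.59 with overlapping groups. The noradrenaline transporter gene Slc6a2 and the growth factor receptor gene Ret, both markers of the lineage, were dim. Dbh, a direct target of PHOX2A, and the vesicular transporter genes Slc18a1 and Slc18a2 were not analysed here.

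The genes whose log2 signals followed each factor most closely over the 6 arrays are given as a description, since the best of 7453 probe sets over 6 arrays that share 2 genotypes correlates highly whatever its role. Pacs1 (Pearson r = 0.998) and Vsnl1 (0.988) were most like Phox2a, and Fn1 (0.993) and Ankrd2 (0.990) most like Hand1. Vamp2 and Ebf1 were most like Gata2 (0.990 each), and 1110051M20Rik (0.983) and Glo1 (0.973) most like Gata3. Cwf19l1 (0.987) and Numb (0.980) were most like Insm1, and Csnk2a2 (0.997) and Wdr61 (0.990) most like Eya1. No lineage factor was among the 2 genes most like another.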

How the data were processed

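The authors deposited linear signal intensities, computed with MAS5 according to the submitters' processing notes (version and scaling target: not given in the sources used here). The trimmed mean was 2501 on each array, so no further normalization was applied. Control probe sets (66) were left out, and symbols were updated through the Entrez identifier. On log2(signal + 16), probe sets with a mean under the 40th percentile (a signal of about 582) were called dim, which left 7453 for limma 3.58.1 (R 4.3.3, lmFit and eBayes with trend). P-values were Benjamini-Hochberg adjusted over these, with 0.05 as the threshold. Dim members were tested in a fit of all 12422 probe sets. Fold changes on this scale understate changes of dim genes, no detection calls were used, and the number of arrays limits precision. The code was tested on simulated data.

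Members and lists were chosen with earlier results of these data known. The rule named all member probe sets, Chga, up to 4 genes per list by p and the 2 genes most like each member; other list genes were named after their values were seen. There were 17 alternatives fixed with the design and 3 added after seeing the data.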

Additional observations from a re-analysis of the deposited data

How the results depend on the processing

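In limma 0 member probe sets passed under any of the 20 alternatives, and the lowest adjusted p of any tested member was 0.0832, for Eya1 with arrays centred on chromaffin markers, which lowers every log2 change by the same 0.36. Gata2, Eya1, Phox2a and Gata3 kept their sign on their brightest probe set under every alternative that included them. Under chromaffin centring these signs could not turn, since the main values lay above 0.36 or, for Eya1, were negative. The centred values were 0.15 for Gata2, 0.03 for Gata3, 0.52 for Phox2a and -0.79 for Eya1. Limma adjusted p ranged from 0.115 to 0.998 for Gata2 and from 0.0832 to 0.998 for Eya1. The range was 0.406 to 0.998 for Phox2a and 0.371 to 0.998 for Gata3. The filter at the 60th percentile left out Phox2a, Insm1 and the second Hand1 probe set. The sign turned for the brighter Hand1 probe set without wild-type replicate 2 (-0.087; its values without 1 array ran from -0.087 to 0.47) and with the 3′ to 5′ ratio of Gapdh as a covariate (-0.027). For dim Hand2, values without 1 array ran from -0.23 to 0.15, and the value was 0.34 with knockout array 1 alone and 0.41 with the covariate. The cause of these turns was not tested. Chromaffin centring turns any value between 0 and 0.36 by its construction, here both Hand1 probe sets (-0.16 and -0.14), Insm1 (-0.071) and the median over members (-0.020), and it moved the median of all tested probe sets to -0.37. The median over members was otherwise 0.18 to 0.47.

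The count over all probe sets, 33, moved more than those of the members. It was 17 without an intensity trend, 13 with knockout array 1 alone, 12 with the covariate, 121 with chromaffin centring and 15 to 141 when 1 array was left out: 141 without knockout array 1, 15 without knockout array 3, 17 without wild-type array 2 and 21 without wild-type array 3. The deviations of arrays with the same replicate number correlated at 0.26, -0.04 and -0.04, so the numbers were not taken to pair the mice. The replicate block gave 57 calls, 0 of them members, and only the arrays numbered 1 correlated best with each other.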
